A study of Mus musculus with 47 samples.

Results

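Ngfr, Pla2g2e and Akr1cl are 3 of the 24391 genes counted in brown fat (BAT), white fat (WAT) and gastrocnemius muscle (GN) of mice with and without an HT1080 tumour. They were chosen by symbol because their counts in white fat were far lower in the tumour-bearing mice given IgG1 than in mice without a tumour, and higher again in tumour-bearing mice given 3P10. The white fat values below therefore describe that choice and carry no test. All 3 genes had reads in white fat, Ngfr and, with far fewer reads, the other two were counted in muscle, and in brown fat the counts were at or near 0.

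All mice were labelled C57Bl6, and tissues were taken 21 days after inoculation. The NTB mice carried no tumour, and no antibody is stated for them. The IgG1 and 3P10 mice carried HT1080, a human fibrosarcoma line, and received a control IgG1 antibody or 3P10 at 3 mg/kg each week from day 0. 3P10 is known as an antibody against GFRAL, the hindbrain receptor for the cachexia-linked hormone GDF15. The labels do not give the immune status of the mice that carried the human cells, the fat depot, or whether tissues with the same number came from 1 mouse, and all samples are whole pieces of frozen tissue. White fat and muscle had 5 libraries in each of the 3 groups, and brown fat had 6 NTB, 5 IgG1 and 6 3P10 libraries.

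Ngfr encodes p75, a death-domain receptor that binds the neurotrophins and works with Trk receptors or with sortilin, and it is best known from neurons, Schwann cells and some stromal cells. Pla2g2e encodes group IIE secreted phospholipase A2, an enzyme that cuts fatty acids from phospholipids outside the cell and is made by mouse adipocytes in obesity. Akr1cl belongs to the aldo-keto reductases, which use NADPH to reduce carbonyl groups on steroids, sugars and lipid aldehydes.

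The promoter windows are shown because all 3 genes had their lowest white fat mean in IgG1. Each is the RefSeq GRCm38.p6 stretch from 250 to 51 bases before the start site, written 5′ to 3′ on the gene's own strand, and all 3 genes matched an entry. Capitals mark matches to the motifs searched on both strands, so a match to the other strand appears as its reverse complement.
Ngfr promoter, chr11:95587749-95587948, minus strand: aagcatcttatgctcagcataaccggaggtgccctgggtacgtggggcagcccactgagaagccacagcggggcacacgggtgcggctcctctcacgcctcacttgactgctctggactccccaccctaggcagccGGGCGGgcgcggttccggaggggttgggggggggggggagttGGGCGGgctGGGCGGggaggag
Pla2g2e promoter, chr4:138877692-138877891, plus strand: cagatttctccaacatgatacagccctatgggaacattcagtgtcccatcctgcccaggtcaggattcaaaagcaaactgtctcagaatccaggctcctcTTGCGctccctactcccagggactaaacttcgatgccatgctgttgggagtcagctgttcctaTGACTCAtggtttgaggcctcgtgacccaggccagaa
Akr1cl promoter, chr1:65032810-65033009, minus strand: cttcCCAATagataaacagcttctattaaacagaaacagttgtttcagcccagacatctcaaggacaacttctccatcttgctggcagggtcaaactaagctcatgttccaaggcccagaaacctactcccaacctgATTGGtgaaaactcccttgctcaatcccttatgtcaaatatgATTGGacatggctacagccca
The windows had little in common. That of Ngfr was 70.0% G and C, against a median of 51.5% over 27025 mouse promoters, and held 13 CpG pairs against a median of 4. It had 3 GC boxes (GGGCGG), a motif found in 24.5% of all promoters in the same window. The Pla2g2e window was 52.0% G and C with 3 CpG pairs, and it held 1 AP-1 site (TGACTCA, in 3.61% of promoters) and 1 C/EBP half-site (TTGCG, in 11.7%). The Akr1cl window was 44.5% G and C with 0 CpG pairs and had 3 CCAAT boxes (CCAAT, in 28.9%). No window held the E-box CACGTG (in 4.35% of promoters), the glucocorticoid receptor half-site AGAACA (13.3%) or the CRE half-site TGACG (12.6%), and no motif was found in more than 1 of the 3 windows. Letters of a motif show neither binding nor its absence.

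Library totals were 18.6 to 80.7 M counts in white fat (M stands for 1000 × 1000), 24.8 to 33.5 M in muscle and 0.799 to 2.46 M in brown fat, where a 3-prime kit was used. The 80.7 M belonged to white fat IgG1 replicate 4 alone, and the next deepest white fat library, NTB replicate 3, held 34.4 M. White fat and muscle libraries matched their labelled tissue: the summed level of 16 adipocyte genes was 62527 to 94622 CPM (counts per M, after TMM scaling) in white fat against 3414 to 5485 CPM in muscle. The 10 muscle genes summed to at least 173404 CPM in muscle and to 887 to 3595 CPM in white fat, where 11 keratinocyte genes summed to 5.30 to 877 CPM. In brown fat, on its own scale, the adipocyte genes summed to 34087 to 52901 CPM and 10 thermogenic genes to 7762 to 12132 CPM. In white fat, IgG1 replicates 2 and 4 stood apart on the first principal component (38.5% of the variance) and held 3286 and 3143 CPM of the thermogenic gene Ucp1, against 37.1 to 712 CPM in the other 13 libraries. In muscle 4 libraries stood apart in the same way (46.4%): 3P10 replicate 2, NTB replicate 3 and replicates 2 and 4 of IgG1. Many results that rest on these libraries are given with and without them. The labels do not say that replicates are separate mice, so the spread between them may in part be technical.

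Ngfr, the receptor, was near 7 CPM in white fat without a tumour and below 1.5 CPM in every IgG1 library. The 5 NTB libraries held 6.97, 8.21, 5.92, 6.68 and 7.84 CPM (7.12 ± 0.917, mean ± SD, n = 5). The IgG1 libraries held 0.797, 0.644, 0.844, 1.46 and 0.681 CPM (0.885 ± 0.332, n = 5), which is 16 to 111 reads each. The 3P10 libraries held 3.22, 8.81, 9.43, 3.06 and 8.52 CPM (6.61 ± 3.18, n = 5). Every IgG1 library lay below all NTB and all 3P10 libraries, and the 3P10 group had 3 libraries above all NTB values and 2 below them. The fitted log2 fold change was -2.97 (SE 0.35) for IgG1 against NTB, a 7.83-fold lower level, and 2.86 (SE 0.35) for 3P10 against IgG1. For 3P10 against NTB it was -0.11 (SE 0.32), and it ran from -0.26 to 0.07 as single libraries were left out. In whole tissue, fewer cells of a type and less RNA per cell cannot be told apart.

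Pla2g2e, the secreted phospholipase, showed the same order with a smaller difference between the 2 antibody groups. The NTB libraries held 4.62, 7.89, 11.6, 4.65 and 2.94 CPM (6.33 ± 3.43, n = 5), and the IgG1 libraries held 1.16, 0.523, 0.281, 0.276 and 0.757 CPM (0.599 ± 0.369, n = 5), from 9 to 29 reads each. The 3P10 libraries held 0.831, 3.00, 1.32, 3.38 and 2.34 CPM (2.18 ± 1.08, n = 5). IgG1 and NTB did not overlap. In the 3P10 group, 4 of 5 libraries lay above all IgG1 libraries, while replicate 1 fell inside the IgG1 range, and 3 of 5 lay below all NTB libraries. The log2 fold change was -3.44 (SE 0.52) for IgG1 against NTB, 10.9-fold lower, 1.89 (SE 0.50) for 3P10 against IgG1, 3.70-fold higher, and -1.55 (SE 0.47) for 3P10 against NTB. By fold, its 3P10 level was the nearest of the 3 genes to its IgG1 level.

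Akr1cl, the reductase, had the fewest reads of the 3 genes in the NTB and IgG1 groups and the most in the 3P10 group. The NTB libraries held 0.853, 0.526, 0.987, 3.75 and 4.44 CPM (2.11 ± 1.83, n = 5), so replicates 4 and 5 stood well above the other 3. The IgG1 libraries had 12, 0, 3, 1 and 4 reads, or 0.478, 0, 0.0938, 0.0132 and 0.151 CPM (0.147 ± 0.195, n = 5). The 0 of replicate 2 allows up to 0.121 CPM, the level of 3 reads in that library. The 3P10 libraries held 8.35, 8.25, 10.8, 1.40 and 6.45 CPM (7.05 ± 3.52, n = 5). All IgG1 libraries lay below all others, and 4 of 5 3P10 libraries lay above all NTB libraries, with 3P10 replicate 4 inside the NTB range. The log2 fold change was -3.97 (SE 0.89) for IgG1 against NTB, 15.7-fold lower, 5.73 (SE 0.92) for 3P10 against IgG1, 52.9-fold higher, and 1.75 (SE 0.72) for 3P10 against NTB. With so few IgG1 reads these folds depend on 1 library: without IgG1 replicate 1, which held 12 of the group's 20 reads, they were -5.14 and 6.89.

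**Figure D1:**
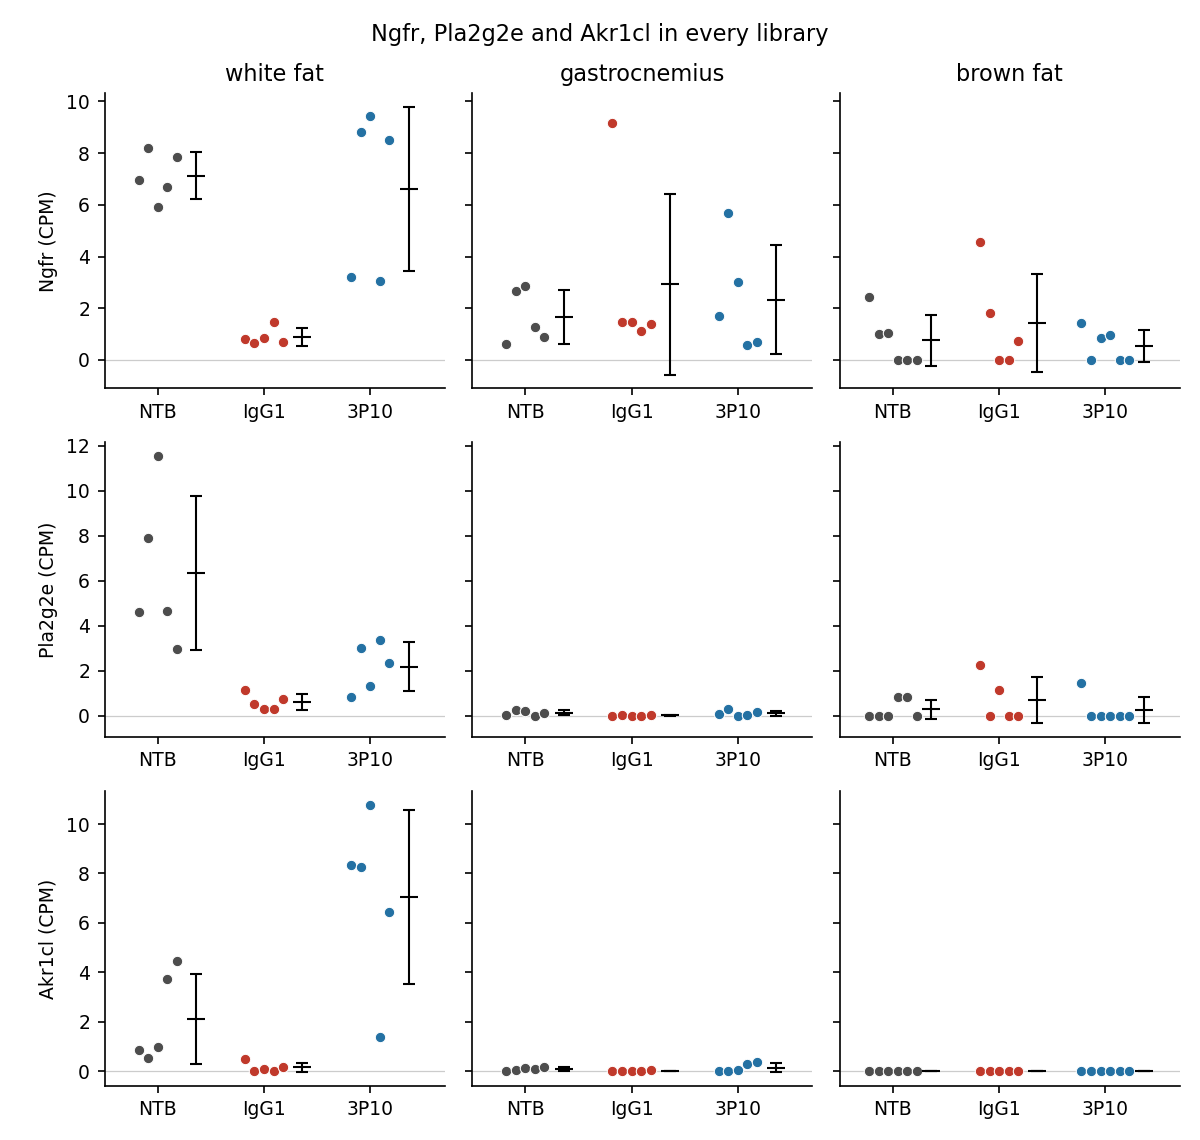
CPM of Ngfr, Pla2g2e and Akr1cl (rows) in white fat, gastrocnemius and brown fat (columns), with 1 point per library in replicate order and the group mean ± SD beside it. In white fat the IgG1 points lie below all NTB points for each gene, in muscle only Ngfr rises clearly above 0, and brown fat points of 0.7 to 4.5 CPM stand for 1 to 4 reads. CPM was scaled within each tissue.

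The 3 genes were picked from the far end of the white fat comparison. Of 14402 genes tested, 4.95% lay lower in IgG1 than in NTB with no overlap, and all 3 were among them. By fitted fall, Akr1cl ranked 2nd, Pla2g2e 3rd and Ngfr 7th, where the median gene stood at -0.01. For 3P10 against IgG1, 2.92% of genes were higher with no overlap, Ngfr and Akr1cl among them, and by fitted rise Akr1cl ranked 1st, Ngfr 11th and Pla2g2e 69th. Both comparisons use the same 5 IgG1 libraries, so a low value in those libraries lowers one fold and raises the other. For 3P10 against NTB, which does not use them, 0.847% of genes did not overlap and none of the 3 was among them. Without IgG1 replicates 2 and 4, the log2 fold changes for IgG1 against NTB were -3.19, -3.13 and -3.13 for Ngfr, Pla2g2e and Akr1cl, and those for 3P10 against IgG1 were 3.09, 1.58 and 4.89, each within 1 SE of the value with all libraries.

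**Figure D2:**
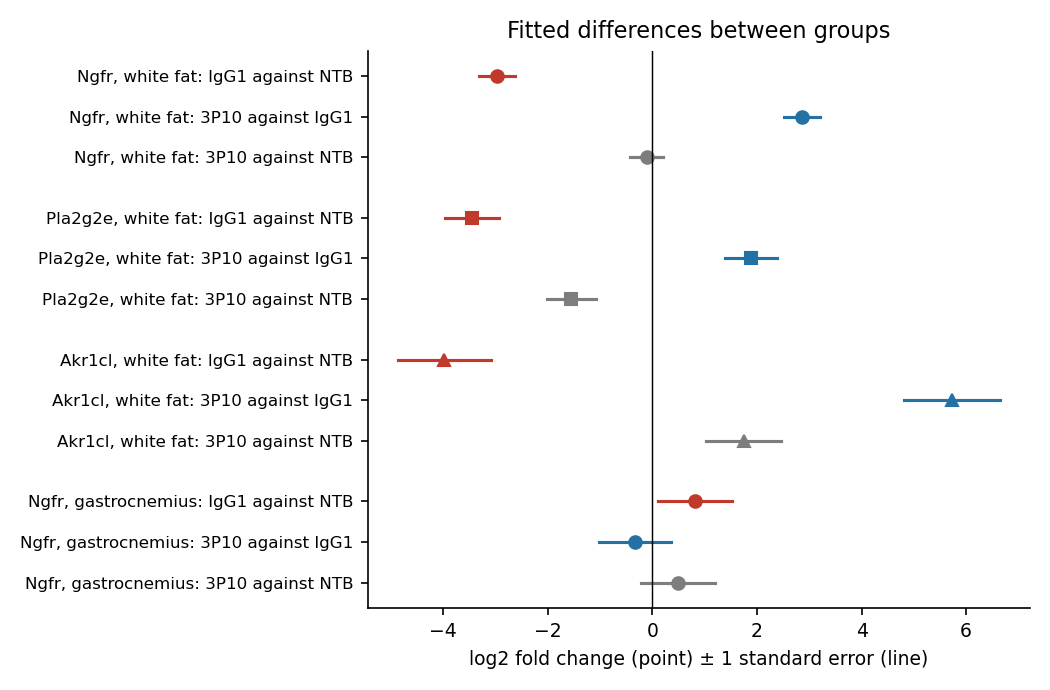
Fitted log2 fold changes (points) ± 1 standard error (lines) of the 3 genes in white fat and of Ngfr in gastrocnemius, for IgG1 against NTB (red), 3P10 against IgG1 (blue) and 3P10 against NTB (grey). In white fat the red points lie between -3.97 and -2.97 and the blue between 1.89 and 5.73, while the muscle values of Ngfr lie between -0.33 and 0.82.

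Within white fat the 3 genes were not interchangeable. Over all 15 libraries, Pearson's r of log2(CPM + 0.5) was 0.73 between Ngfr and Pla2g2e, 0.74 between Ngfr and Akr1cl and 0.28 between Pla2g2e and Akr1cl. After each group's mean was subtracted, the values were -0.09, 0.36 and -0.49. The libraries share the group differences on which the genes were chosen, so these numbers only describe the 15 libraries. In the NTB group, for example, Akr1cl was highest in replicate 5, where Pla2g2e was lowest.

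Among 13014 white fat genes with a mean of at least 1 CPM, those whose profile over the 15 libraries was most like that of Ngfr were Cdc42ep5 (r = 0.891), C1qtnf6 (0.890), Dgcr8 (0.889) and Ndn (0.886). For Pla2g2e they were Vcan, the matrix proteoglycan versican (0.888), Smc2, a condensin subunit (0.879), C430049B03Rik (0.875) and Mageh1 (0.873). Those closest to Akr1cl were Stambpl1 (0.871), Gm4841 (0.854), Ccr2, the chemokine receptor of inflammatory monocytes (0.854), and Elmsan1 (0.845). None of the 12 genes was listed for 2 of the 3. By Spearman's rho, 0, 1 and 2 of the 4 stayed among the top 4 for Ngfr, Pla2g2e and Akr1cl. After group means were subtracted, the closest genes were Mad2l2, Iqsec3 and Gm14326 for Ngfr (highest r 0.862), Bhlhb9, Cep95 and Plod2 for Pla2g2e (0.809), and C1galt1c1, Plxna1 and Ubtd1 for Akr1cl (0.914).

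In muscle, a tissue the choice did not use, Ngfr was the one gene of the 3 with enough reads to be fitted, and its groups overlapped throughout. The NTB libraries held 0.613, 2.65, 2.87, 1.29 and 0.889 CPM (1.66 ± 1.03, n = 5). The IgG1 libraries held 9.15, 1.47, 1.47, 1.13 and 1.38 CPM (2.92 ± 3.49, n = 5), and the 3P10 libraries 1.70, 5.70, 3.01, 0.572 and 0.698 CPM (2.34 ± 2.12, n = 5). IgG1 replicate 1 was the highest of the 15, and the other 4 IgG1 libraries lay inside the NTB range. The log2 fold change for IgG1 against NTB was 0.82 (SE 0.70; adjusted p = 0.565 by edgeR's quasi-likelihood test with Benjamini-Hochberg adjustment, 5.60% of 13283 genes called). For 3P10 against IgG1 it was -0.33 (SE 0.69; edgeR adjusted p = 0.940, 0.211% called). Without IgG1 replicate 1 both turned in sign, to -0.28 and 0.77. In that library the Schwann cell genes summed to 165 CPM, within the 117 to 314 CPM of the other IgG1 libraries, and the fibroblast genes to 721 CPM, the highest of the 5, against 502 to 657 CPM. Their part in its Ngfr level was not tested. For 3P10 against NTB the log2 fold change was 0.49 (SE 0.71; 0% of genes called, edgeR quasi-likelihood adjusted p = 0.9999, unadjusted 0.498), and -0.14 without 3P10 replicate 2. No gene was called there by edgeR, with 563 at an unadjusted p under 0.05, and DESeq2 called 15. Without the 4 muscle libraries that stood apart, the 3 values were 1.53, -1.42 and 0.10, none of them called. The fits leave a wide range for Ngfr in muscle: the 95% interval for IgG1 against NTB ran from -0.68 to 2.31.

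Pla2g2e and Akr1cl were barely counted in muscle. Pla2g2e had 1, 8, 4, 0 and 3 reads in the NTB libraries (at most 0.268 CPM), 0, 1, 0, 0 and 1 in IgG1 (at most 0.0431 CPM) and 2, 8, 0, 1 and 5 in 3P10 (at most 0.285 CPM). Akr1cl had 0, 1, 3, 2 and 4 reads in NTB, 0, 0, 0, 0 and 1 in IgG1, and 0, 0, 1, 10 and 13 in 3P10 (at most 0.363 CPM). For both genes the IgG1 group held the fewest reads, but the groups overlapped, and 3 reads correspond to 0.0838 to 0.143 CPM in these libraries. For IgG1 against NTB the mean difference in log2(CPM + 0.5) was -0.25 for Pla2g2e (exact permutation test, two-sided, p = 0.0873) and -0.19 for Akr1cl (exact p = 0.0476), where 5 against 5 can reach 0.00794. Over the 12 tests of genes below the count filter in muscle and brown fat, no adjusted p was under 0.5.

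In brown fat none of the 3 genes passed the filter. Ngfr had 4 reads in all over the 6 NTB libraries, 7 over the 5 IgG1 libraries and 5 over the 6 3P10 libraries. Its lowest, median and highest levels were 0, 0.507 and 2.45 CPM in NTB and 0, 0.417 and 1.44 CPM in 3P10, and the IgG1 libraries held 4.54, 1.83, 0, 0 and 0.748 CPM. Pla2g2e had 2, 3 and 2 reads in NTB, IgG1 and 3P10, and at most 2 in a library. Akr1cl had 0 reads in all 17 libraries, which allows 1.25 to 3.68 CPM at the depth of each. At this depth a difference between the groups was not detectable for Akr1cl, and for the other two it would rest on single reads. The exact permutation tests gave p between 0.424 and 1 for Ngfr and Pla2g2e, and none was run for Akr1cl.

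White fat and muscle shared a kit and could be fitted together, which places the 3 genes by tissue in mice without a tumour. With both tissues on 1 scale, Pla2g2e averaged 4.52 ± 2.45 CPM in white fat and 0.168 ± 0.152 CPM in muscle (SD, n = 5 each), a log2 difference of 4.75 (SE 0.66) or 26.9-fold. Akr1cl averaged 1.51 ± 1.32 against 0.111 ± 0.0942 CPM, a log2 difference of 3.80 (SE 0.92) or 13.9-fold. For Ngfr the averages were 5.08 ± 0.662 and 2.30 ± 1.42 CPM, and the difference was 1.15 (SE 0.57), with a 95% interval from -0.02 to 2.33. The NTB libraries of white fat lay above those of muscle with no overlap for all 3 genes, as they did for 31.3% of the 14898 genes fitted. The median gene differed by 0.10. The white fat NTB libraries also entered the comparison on which the genes were picked, so these differences are a description with no test.

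Around Ngfr, no other receptor of the neurotrophin system passed the test in white fat, and 2 of 9 partners of p75 fell. The lists of relatives were written with earlier results of these data known. Over all genes, edgeR called 8.64% for IgG1 against NTB and 7.42% for 3P10 against IgG1. Of the 5 neurotrophin receptors and co-receptors tested in white fat, none was called in either comparison, with 1 and 2 at an unadjusted p under 0.05 and 0 in DESeq2. Sort1, the sortilin that pairs with p75 for unprocessed neurotrophins, was at 594 ± 123 CPM in NTB, 662 ± 235 in IgG1 and 560 ± 41.2 in 3P10 (n = 5 each), with overlap between all groups. Among the p75 partners, Ndn, a growth-restraining protein of the MAGE family that binds p75, fell from 39.7 ± 3.64 CPM in NTB to 19.4 ± 3.69 in IgG1 (log2 -1.03, SE 0.12, edgeR adjusted p = 0.00163). It rose to 33.3 ± 3.34 CPM in 3P10 (0.78, SE 0.12, edgeR adjusted p = 0.00702). Without the IgG1 libraries that stood apart the fall was -0.96 (edgeR adjusted p = 0.0202), and the rise was 0.71 and missed the threshold (edgeR adjusted p = 0.0616). Ndn was listed above among the 4 genes closest to Ngfr by Pearson's r, though not by Spearman's rho. That listing adds nothing separate, because Ngfr was chosen for the same group differences. Adam17, the protease that sheds the p75 ectodomain, fell by 0.31 (SE 0.08, edgeR adjusted p = 0.0328) and rose by 0.29 (SE 0.08, edgeR adjusted p = 0.0456), calls that were lost without any 1 of 7 and 12 libraries. Over the 9 partners the median was -0.24 for IgG1 against NTB, with 6 negative. Without the IgG1 libraries that stood apart that median was -0.01, and Ndn was the only partner called.

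Among the other secreted phospholipases, Pla2g2d, which is known from lymphoid tissue and its dendritic cells and macrophages, moved the opposite way to Pla2g2e. It rose from 2.55 ± 0.392 CPM in NTB to 11.7 ± 4.87 in IgG1 (log2 2.20, SE 0.38, edgeR adjusted p = 0.00724), with every IgG1 library above all NTB libraries. The rise was 2.28 without the IgG1 libraries that stood apart (edgeR adjusted p = 0.0417). In 3P10 it averaged 5.75 ± 3.60 CPM, a log2 fold change of -1.03 (SE 0.36) against IgG1 that missed the threshold (edgeR adjusted p = 0.0870). Pla2g5, whose gene lies near Pla2g2e, had 0.759 ± 0.306, 1.23 ± 1.38 and 2.09 ± 2.34 CPM in NTB, IgG1 and 3P10 and was not called. The list of 11 genes also held Pla2r1, a phospholipase receptor and not an enzyme. Of the 11, 4 were tested, Pla2r1 among them, and 1 was called for IgG1 against NTB. The median of the 4 was 0.64, and the 1 negative value was that of Pla2r1 (-0.15, SE 0.23). That median was 0.14 without the IgG1 libraries that stood apart. None of 7 intracellular or other phospholipases A2 tested was called in either comparison, with 1 at an unadjusted p under 0.05 in each and 0 in DESeq2.

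Of 16 other aldo-keto reductases 9 were tested in white fat. Akr7a5, an aflatoxin aldehyde reductase, rose from 69.2 ± 17.2 CPM in NTB to 123 ± 14.7 in IgG1 (log2 0.83, SE 0.17, edgeR adjusted p = 0.0124) and fell to 80.4 ± 12 in 3P10 (-0.61, SE 0.17, edgeR adjusted p = 0.0442). Akr1c14, a hydroxysteroid dehydrogenase, held 11 ± 8.06, 3.44 ± 1.54 and 12.2 ± 5.54 CPM in NTB, IgG1 and 3P10. Its log2 fold change was -1.69 (SE 0.52, edgeR adjusted p = 0.0536) for IgG1 against NTB, and it rose by 1.83 (SE 0.52, edgeR adjusted p = 0.0464) in 3P10 against IgG1. Without the IgG1 libraries that stood apart, neither gene was called: Akr7a5 had an edgeR adjusted p of 0.0552 and 0.135, and the Akr1c14 rise was 1.44 (edgeR adjusted p = 0.246). The Akr7a5 fall and the Akr1c14 rise were also lost without any 1 of 13 and of 10 libraries. In muscle Akr1c14 fell in IgG1 from 1.53 ± 0.278 to 0.636 ± 0.266 CPM (log2 -1.26, SE 0.27, edgeR adjusted p = 0.0153), as did Akr1b10, from 29.3 ± 2.75 to 16 ± 5.06 CPM (-0.87, SE 0.18, edgeR adjusted p = 0.0100), and both falls were called without the muscle libraries that stood apart. The median of the 9 in white fat was -0.08 for IgG1 against NTB. Without the IgG1 libraries that stood apart it was -0.26, over 10 tested.

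**Figure D3:**
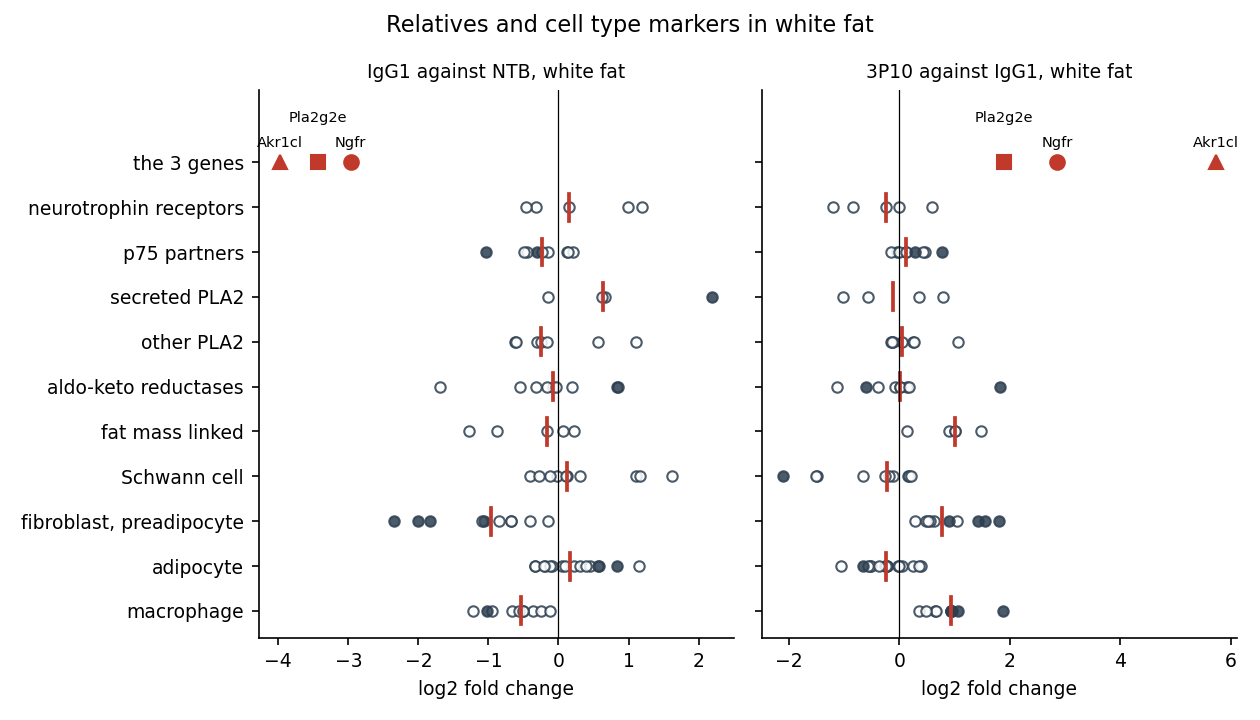
Log2 fold changes in white fat for IgG1 against NTB (left) and 3P10 against IgG1 (right), with 1 circle per tested gene of each list, filled where the adjusted p was under 0.05, and a red line at the list's median. The 3 chosen genes stand at the top in red; the fibroblast list has 4 filled circles below 0 on the left and 4 above 0 on the right, while the neurotrophin receptors have none.

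In brown fat, where Ngfr itself could not be measured, 3 of 4 tested receptors of the neurotrophin list rose in 3P10 against IgG1, where 6.05% of 8711 genes were called higher. Ntrk3, the receptor of neurotrophin 3, fell from 232 ± 12.3 CPM (n = 6) in NTB to 171 ± 31.4 (n = 5) in IgG1 (log2 -0.45, SE 0.12, edgeR adjusted p = 0.0450, 1.11% called lower) and rose to 264 ± 47.4 (n = 6) in 3P10 (0.63, SE 0.12, edgeR adjusted p = 0.00191). The fall was lost without any 1 of 13 libraries, and the rise was called in every such fit. Ntrk2, the receptor of BDNF, rose by 0.46 (SE 0.11, edgeR adjusted p = 0.00675) from 172 ± 7.24 to 237 ± 26.4 CPM, and Sorcs2, a sortilin relative, by 0.91 (SE 0.25, edgeR adjusted p = 0.0201) from 23.1 ± 7.36 to 43.1 ± 11.9 CPM. The Sorcs2 call was lost without IgG1 replicate 3 (or 3P10 replicate 3). The numbers in the brown fat labels run group by group, so an effect of that order and one of the group cannot be told apart.

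Markers of the cells in which Ngfr is best known did not all move with it. Of the 10 Schwann cell genes tested in white fat none was called for IgG1 against NTB (2 at an unadjusted p under 0.05, 1 called by DESeq2), with a median of 0.12, and the list summed to 247 to 322 CPM in NTB, 218 to 363 in IgG1 and 240 to 332 in 3P10. In 3P10 against IgG1, Erbb3 alone was called, with a log2 fold change of -2.10 (SE 0.60, edgeR adjusted p = 0.0478), opposite to Ngfr. The median there was -0.22, with 3 genes at an unadjusted p under 0.05 and 2 called by DESeq2. No Schwann cell gene was called without the IgG1 libraries that stood apart, with medians of -0.17 and -0.18. Sox10, the defining Schwann cell factor, was at 0.904 ± 0.471, 0.895 ± 0.258 and 1.01 ± 0.572 CPM (n = 5 each), and none of the list was at 0 in all libraries of a group. The 12 sympathetic neuron genes summed to only 4.07 to 26.1 CPM, with Th at 0 in all NTB and Dbh at 0 in all 3P10 libraries. The highest sum was that of IgG1 replicate 4 alone, and the other 14 white fat libraries reached at most 13.7 CPM. Of the 5 tested, 1 was called, Snap25, a protein of synaptic vesicle release, which went the opposite way to Ngfr: it rose by 3.02 (SE 0.76, edgeR adjusted p = 0.0278) in IgG1 against NTB and had a log2 fold change of -3.47 (SE 0.79, edgeR adjusted p = 0.0239) in 3P10 against IgG1. Its levels were 0.275 ± 0.0840, 2.20 ± 2.92 and 0.201 ± 0.118 CPM in NTB, IgG1 and 3P10 (n = 5 each). Without the IgG1 libraries that stood apart none of the list was called, and its median turned from 0.91 to -0.52 and from -0.91 to 0.52.

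Of 10 fibroblast and preadipocyte markers, 4 changed in the same directions as the 3 genes. The whole list was lower in IgG1, with a median of -0.96, and those that fell were Col1a1 (log2 -2.35, SE 0.49), Col3a1 (-2.0, SE 0.40), Lum (-1.84, SE 0.32) and Cd34 (-1.07, SE 0.23), with edgeR adjusted p-values of 0.0139, 0.0117, 0.00811 and 0.0153. The same 4 rose in 3P10 against IgG1 (edgeR adjusted p from 0.0197 to 0.0445), with a median of 0.76 over the 10. The list summed to 2444 to 3788 CPM in NTB, 703 to 1690 in IgG1 and 1478 to 2883 in 3P10. Pdgfra, the receptor that marks these cells, was not called, at 43.8 ± 7.35, 39.7 ± 9.70 and 48.3 ± 14.7 CPM. Without the IgG1 libraries that stood apart, Col1a1 alone was called lower and none higher in 3P10, with medians of -0.93 and 0.68. The macrophage list summed to 324 to 539, 191 to 395 and 338 to 739 CPM, and all 10 of its genes had negative values for IgG1 against NTB (median -0.53) and positive ones for 3P10 against IgG1 (median 0.93). Ccr2 was the 1 called in the first, at -1.02 (SE 0.26, edgeR adjusted p = 0.0275), and rose by 1.87 (SE 0.26, edgeR adjusted p = 0.00602) in the second. Lyz2, Adgre1 and Ctss also rose in the second, by 0.94, 0.93 and 1.05 (edgeR adjusted p = 0.0346, 0.0387 and 0.0215). Without the libraries that stood apart, Ccr2 alone was called, and only in 3P10 against IgG1. Of the 8 mural cell genes, with a median of -1.04 in IgG1 against NTB, the contractile gene Tagln fell by 2.16 (SE 0.63, edgeR adjusted p = 0.0463), and none was called in 3P10 against IgG1 (median 0.39) or in either comparison without those libraries. The mural list had median sums of 2146, 592 and 739 CPM in NTB, IgG1 and 3P10, with NTB libraries spread from 459 to 4268 CPM. Of the 16 adipocyte genes none was called lower in IgG1 against NTB. Cfd and Pnpla2 were called higher, at 0.83 and 0.58 (edgeR adjusted p = 0.0465 and 0.0263), with a list median of 0.16. In 3P10 against IgG1 Pnpla2 alone was called, at -0.65 (edgeR adjusted p = 0.0220), with a median of -0.24. No adipocyte gene was called without the libraries that stood apart. None of 10 endothelial genes was called in either comparison, with medians of -0.21 and 0.16. The part of these cell types in the levels of the 3 genes was not tested.

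**Figure D4:**
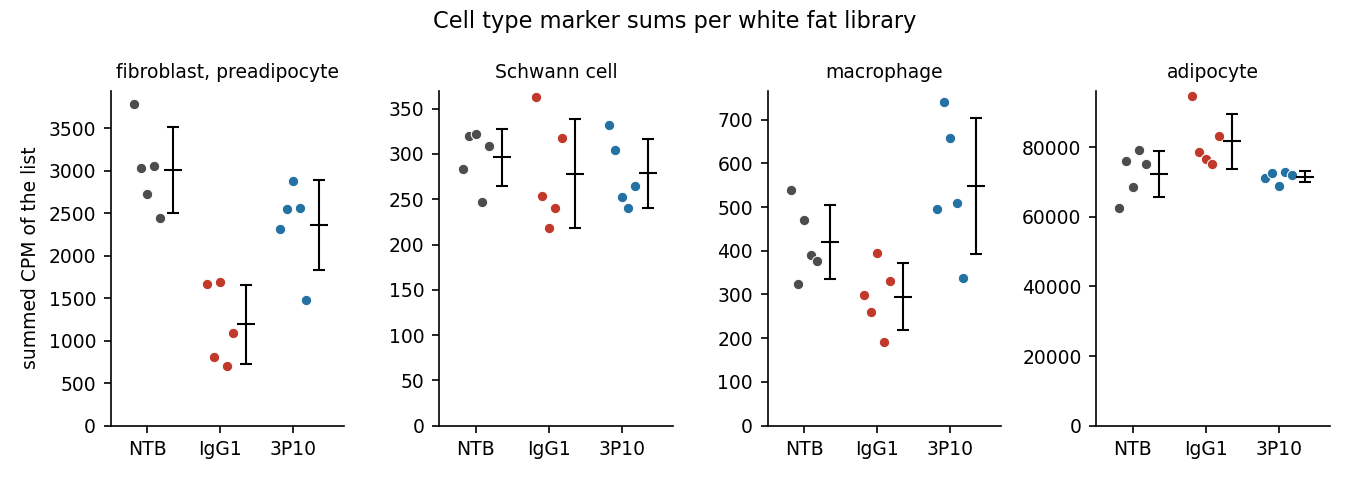
Summed CPM of the fibroblast, Schwann cell, macrophage and adipocyte lists in each white fat library, with the group mean ± SD. Every IgG1 point of the fibroblast list lies below all NTB points, at 703 to 1690 against 2444 to 3788 CPM, while the Schwann cell points of the 3 groups overlap.

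Genes that track fat mass varied widely among the IgG1 libraries and did not pass the test. None of the 5 listed was called in white fat for either comparison, with 0 and 1 at an unadjusted p under 0.05 and 0 in DESeq2. Lep, the leptin gene, ranged from 1203 to 1827 CPM in NTB, from 60.2 to 1386 in IgG1 and from 580 to 2686 in 3P10, so IgG1 and NTB overlapped. Its log2 fold change for IgG1 against NTB was -1.28 (SE 0.63, edgeR adjusted p = 0.189). The 3 genes did not overlap there, but they were chosen for that fall, so nothing follows from setting them against Lep. Mest ranged from 105 to 272 CPM in NTB and from 1.18 to 438 in IgG1.

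Reads of the 3 genes could mostly be told from those of other genes. Of the 50-base stretches in their GENCODE vM21 transcripts, 0 of 892 for Pla2g2e and 29 of 3397 for Ngfr (0.854%) occurred in another gene. For Akr1cl 454 of 4297 (10.6%) did, 447 of them in the pseudogene Gm8550. How the counting treated such reads is not given in the sources used here, so the Akr1cl values are the least certain of the 3.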

How the data were processed

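RNA from white fat, brown fat and gastrocnemius of 47 samples was measured as counts. The deposited tables hold whole-number counts per gene symbol, which, per the submitters' processing notes, came from Trim Galore, STAR 2.6.0a on mm9, featureCounts 1.6.2 and edgeR 3.22.3. The annotation, the strand setting and any collapsing of molecular identifiers are not given in the sources used here. Per the labels' protocols, brown fat was prepared with a 3-prime kit and the other tissues with a directional kit. Brown fat values are therefore not on the scale of the others.

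Each tissue was fitted apart with edgeR 4.0.16 in R 4.3.3: filterByExpr (minimum count 10, minimum total 15), TMM factors, the 3 groups in 1 quasi-likelihood model, two-sided tests and Benjamini-Hochberg adjustment over all genes, called at 0.05. CPM is the count per M of the scaled library total. The filter kept 14402 genes in white fat (all 3 chosen genes), 13283 in muscle (Ngfr) and 8711 in brown fat (none). Chosen genes below the filter had an exact permutation test of log2(CPM + 0.5). White fat against muscle was a joint fit, planned as a test and reported without p because its white fat libraries had helped to choose the genes. Counting error sets a floor of 3 reads, and intervals are at 95%. The fits were tested on simulated data. The 3 genes, the lists and the rule for named genes (every called gene of a list of relatives, at most 4 per list and tissue, 8 fixed examples, and the 4 and 3 genes of highest Pearson r) were chosen with earlier results of these data known. One list and 1 of the fixed examples are not reported here. Cell type marker genes outside that rule, and Pla2r1, were named after their values were seen. No label states that shared replicate numbers pair the samples, and within each group they follow the sorted sample names. The main fits did not use them as pairs. Of 5 pairs per comparison, the correlation of deviations from group means was over 0.1 in 0 to 4. For white fat and muscle of the same group and number it ran from -0.18 to 0.22, over 0.1 in 8 of 15 pairs. Alternatives were DESeq2 1.42.0, RLE factors, other filters, 2-group fits, a replicate block and leaving out each library. Leaving out the libraries that stood apart was chosen after seeing the data.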

Additional observations from a re-analysis of the deposited data

Results flagged for a closer look

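In 24 groups of libraries with reads of a chosen gene, 4 had 1 library far from the rest of its group. Chance gives about 1 in 20 groups of continuous values, a rate that does not hold for sparse counts: a group in which 1 library alone has reads is always picked out, as were 2 of the 4. Ngfr in white fat IgG1 replicate 4 was 1.46 CPM against 0.644 to 0.844 CPM in the other 4. This library was also the deepest in white fat and had high Ucp1 and 283 CPM of the skin keratin Krt14. Ngfr in muscle IgG1 replicate 1 was 9.15 CPM against 1.13 to 1.47 CPM. Pla2g2e in brown fat 3P10 replicate 1 was 1.44 CPM against 0 in the other 5, a matter of 2 reads. Akr1cl in muscle IgG1 replicate 5 was 0.0306 CPM against 0 in the other 4, a matter of 1 read.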

How the results depend on the processing

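The white fat log2 fold changes of the 3 genes stayed within 1 SE of the reported value under 7 alternatives each, and under every left-out library except IgG1 replicate 1 for Akr1cl. Leaving out 1 library gave -5.14 to -3.50 and 5.27 to 6.89 for Akr1cl in IgG1 against NTB and 3P10 against IgG1. For Ngfr in muscle it gave -0.28 to 1.06 in IgG1 against NTB, -0.93 to 0.77 between the antibodies and -0.14 to 0.77 in 3P10 against NTB, each turning in sign in 1 fit. The counts of genes called moved far more than these values. DESeq2 called 2551, 2282 and 19 genes in the 3 white fat comparisons, against 1245, 1068 and 0 by edgeR, and 1326, 284 and 15 in muscle, against 744, 28 and 0. Fits on only the 2 groups compared called 154 in brown fat IgG1 against NTB (259 with all groups), 105 in white fat 3P10 against IgG1, and 347 and 7 in muscle. Without both white fat libraries that stood apart, 93 and 15 genes were called. Without the 4 muscle libraries the counts moved in opposite directions, to 874 for IgG1 against NTB and 18 between the antibodies. The cause was not tested. Leaving out 1 library gave 34 to 554, 646 to 1120 and 172 to 675 calls in brown fat, 344 to 2354 and 127 to 2304 in white fat, and 327 to 1307 and 8 to 231 in muscle.

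The replicate numbers follow the sorted sample names within each group, and no label states that they pair the samples. A block on them is therefore an alternative fit and not a known pairing. With the replicate number as a block, 164 genes were called in brown fat IgG1 against NTB, and 418 and 12 in muscle IgG1 against NTB and 3P10 against IgG1. Under the block, these calls missed the threshold by edgeR adjusted p: Ntrk3 in brown fat IgG1 against NTB (0.0980), Adam17 in both white fat comparisons (0.0526 and 0.0722), and Akr1c14 (0.0524) and Akr7a5 (0.0570) in white fat 3P10 against IgG1.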

Other observations

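The genes nearest to the 3 on their chromosomes, picked by position and looked at after the data were known, mostly did not pass the test in white fat. Nxph3, a secreted neurexophilin next to Ngfr, fell by 1.78 in IgG1 against NTB (SE 0.38, edgeR adjusted p = 0.0155), with a log2 fold change of 0.999 in 3P10 against IgG1 that missed the threshold (SE 0.39, edgeR adjusted p = 0.112). Spop, Phb and Zfp652 around Ngfr, Pla2g5 and Otud3 around Pla2g2e, and Fzd5 and Plekhm3 around Akr1cl were not called in either comparison, and Gm13030, Rnf186, Cryge and Crygd were below the count filter. The order of genes came from the RefSeq table, whose build differs from that of the counts.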
